A study of Mus musculus with 24 samples.

Results

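Adenylyl cyclases are the membrane enzymes that turn ATP into cyclic AMP, and 7 of their genes, Adcy3 to Adcy9, were followed here in mouse hearts. Members were all probe sets of the array annotated to exactly 1 of these symbols. This gave 18 of the 45037 probe sets tested, and 7 of 18193 genes. Adcy3, Adcy5 and Adcy9 had 4 probe sets each, Adcy7 had 3, and Adcy4, Adcy6 and Adcy8 had 1 each. Probe sets of 1 gene were read in the same hearts and are not replicates of each other. Whether they read the same transcripts was not tested.

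Hearts of 90-day-old mice of 4 genotypes were profiled on Affymetrix arrays, with 6 biological replicates each. ARG mice carried the human beta1-Arg389 adrenergic receptor and GLY mice carried the human beta1-Gly389 form of it. AC5 mice carried human type 5 adenylyl cyclase, and NTG mice carried no transgene. All 3 transgenes were cDNAs placed under the alpha-myosin heavy chain promoter, which is active in heart muscle cells. Strain, sex and the number of founder lines are not given in the labels, so line and transgene cannot be told apart. The AC5 cDNA is human, and how far the mouse probe sets read it was not tested. The deposited values are ratios to the NTG level of the same probe set. A ratio of 1 is the NTG level, and differences between genotypes below are in log2 of the ratio. A ratio carries no signal level, so levels were not compared between genes, a probe set's brightness is unknown, and the presence of heart muscle markers as such could not be checked. The mean log2 ratio of 14 heart muscle markers lay between -0.22 and -0.03 in ARG hearts, -0.23 and 0.05 in GLY hearts, -0.18 and 0.02 in AC5 hearts, and -0.14 and 0.12 in NTG hearts.

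Adenylyl cyclases are switched on by the stimulatory G protein Gs when a receptor such as the beta1-adrenergic receptor binds catecholamine. The cyclic AMP they make activates protein kinase A, which raises the rate and force of the heartbeat, and phosphodiesterases break it down again. Adcy5 and Adcy6 encode closely related calcium-inhibited enzymes that are the main forms of heart muscle cells. Adcy4 and Adcy7 belong to the group stimulated by G protein beta-gamma subunits, Adcy3 and Adcy8 to the group that responds to calcium and calmodulin, and Adcy9 encodes a form that responds poorly to forskolin.

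GLY replicates 1 and 3 and ARG replicate 1 had the lowest array weights (0.354, 0.312 and 0.478). Member results are therefore also given without these 3 arrays where a call changed, and for some other members. Replicates 1 to 3 and replicates 4 to 6 of NTG each centred near 1 on their own. Over replicates 1 to 3 the NTG mean lay within 0.05 of 1 for 88.0% of probe sets, and over replicates 4 to 6 for 81.3%. Over all 6 NTG hearts it did so for 92.3%. No other split of the hearts was compared, so whether these sets were scaled apart was not tested. The labels name no such sets, and differences within each are therefore given for called members. The mean SD of log2 ratios between hearts was 0.192 in ARG, 0.221 in GLY, 0.155 in AC5 and 0.143 in NTG.

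The Adcy9, Adcy5 and Adcy7 promoters are shown because these genes gave calls and have an entry in the RefSeq promoter table (GRCm38.p6). Each window runs 5′ to 3′ from 250 bases before to 50 bases after the annotated start. Capitals mark the half-site of the cyclic AMP response element, TGACG, or its reverse complement CGTCA. For Adcy7 the first of its 3 annotated starts is printed.
Adcy9, chr16:4420449-4420748, minus strand: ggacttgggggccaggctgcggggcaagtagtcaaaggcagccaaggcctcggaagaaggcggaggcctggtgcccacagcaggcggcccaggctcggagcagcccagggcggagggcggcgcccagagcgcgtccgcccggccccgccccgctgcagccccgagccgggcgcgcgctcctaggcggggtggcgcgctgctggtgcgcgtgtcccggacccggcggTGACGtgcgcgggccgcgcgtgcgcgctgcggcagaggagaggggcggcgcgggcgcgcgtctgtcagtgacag
Adcy5, chr16:35154614-35154913, plus strand: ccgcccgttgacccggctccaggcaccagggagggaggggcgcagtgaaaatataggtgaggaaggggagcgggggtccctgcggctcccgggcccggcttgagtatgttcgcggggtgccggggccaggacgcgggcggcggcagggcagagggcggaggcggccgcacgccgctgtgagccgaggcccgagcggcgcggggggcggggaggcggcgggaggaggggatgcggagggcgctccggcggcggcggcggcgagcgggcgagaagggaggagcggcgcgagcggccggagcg
Adcy7, chr8:88282742-88283041, plus strand: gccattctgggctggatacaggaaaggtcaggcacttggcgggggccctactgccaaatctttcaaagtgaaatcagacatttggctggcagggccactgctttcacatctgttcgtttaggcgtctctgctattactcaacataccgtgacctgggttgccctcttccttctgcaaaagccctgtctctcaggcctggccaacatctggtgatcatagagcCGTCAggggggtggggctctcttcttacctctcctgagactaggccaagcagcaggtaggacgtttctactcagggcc

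The table held entries for 5 of the 7 genes, 8 in all. A half-site on either strand was present in 2 of these 8 windows, those of Adcy9 and of the first Adcy7 start, beside 20.8% of all 32851 promoters of the same length. No member window held the full element TGACGTCA, which 1.79% of all promoters did. The printed Adcy9 and Adcy5 windows are 78.3% and 79.0% G or C, and the Adcy7 window is 54.7%. A match of letters is a description of the window and not a measured site.

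Differences were tested in 6 pairwise comparisons of genotypes with limma, and called means an adjusted p below 0.05 (Benjamini-Hochberg over all probe sets). "Rose" and "fell" are used of called probe sets. Few of the 18 were called, and the counts were read against the share called among all 45037. In ARG against NTG 0 rose and 2 fell, those of Adcy6 and Adcy9, where 9.67% of all probe sets were called, 4.04% higher and 5.63% lower. The members' share in that comparison was thus close to the background. In GLY against NTG 0 were called (limma), with 2 at an unadjusted p under 0.05, where 5.08% of all were called. In AC5 against NTG 0 were called (limma), with 2 at an unadjusted p under 0.05, where 0.142% of all were called. In ARG against GLY 0 were called (limma), with 1 at an unadjusted p under 0.05, where 1.51% of all were called. ARG against AC5 had 1 that rose and 2 that fell, where 4.93% of all were called, 2.52% higher and 2.41% lower. GLY against AC5 had 0 that rose and 1 that fell, where 0.693% of all were called, 0.255% higher and 0.437% lower.

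Groups did not overlap at 1 of the 18 probe sets in ARG against NTG (6.11% of all probe sets), 2 in AC5 against NTG (1.22%) and 1 in GLY against AC5 (0.995%). There were 0 in GLY against NTG (2.68%), ARG against GLY (0.793%) and ARG against AC5 (3.07%). The median difference of the 18 from NTG was 0.06 in ARG, -0.01 in GLY and -0.07 in AC5, beside 0.00, 0.03 and 0.00 over all probe sets. The 6 comparisons share hearts and are not independent of each other. Without the 3 arrays of low weight, 5 members were called in ARG against NTG, where 13.2% of all were called. Beside Adcy6 and Adcy9 1434454_at these were Adcy3 1436929_x_at (-0.34), Adcy7 1456307_s_at (0.32) and Adcy9 1419811_at (-0.27).

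**Figure D1:**
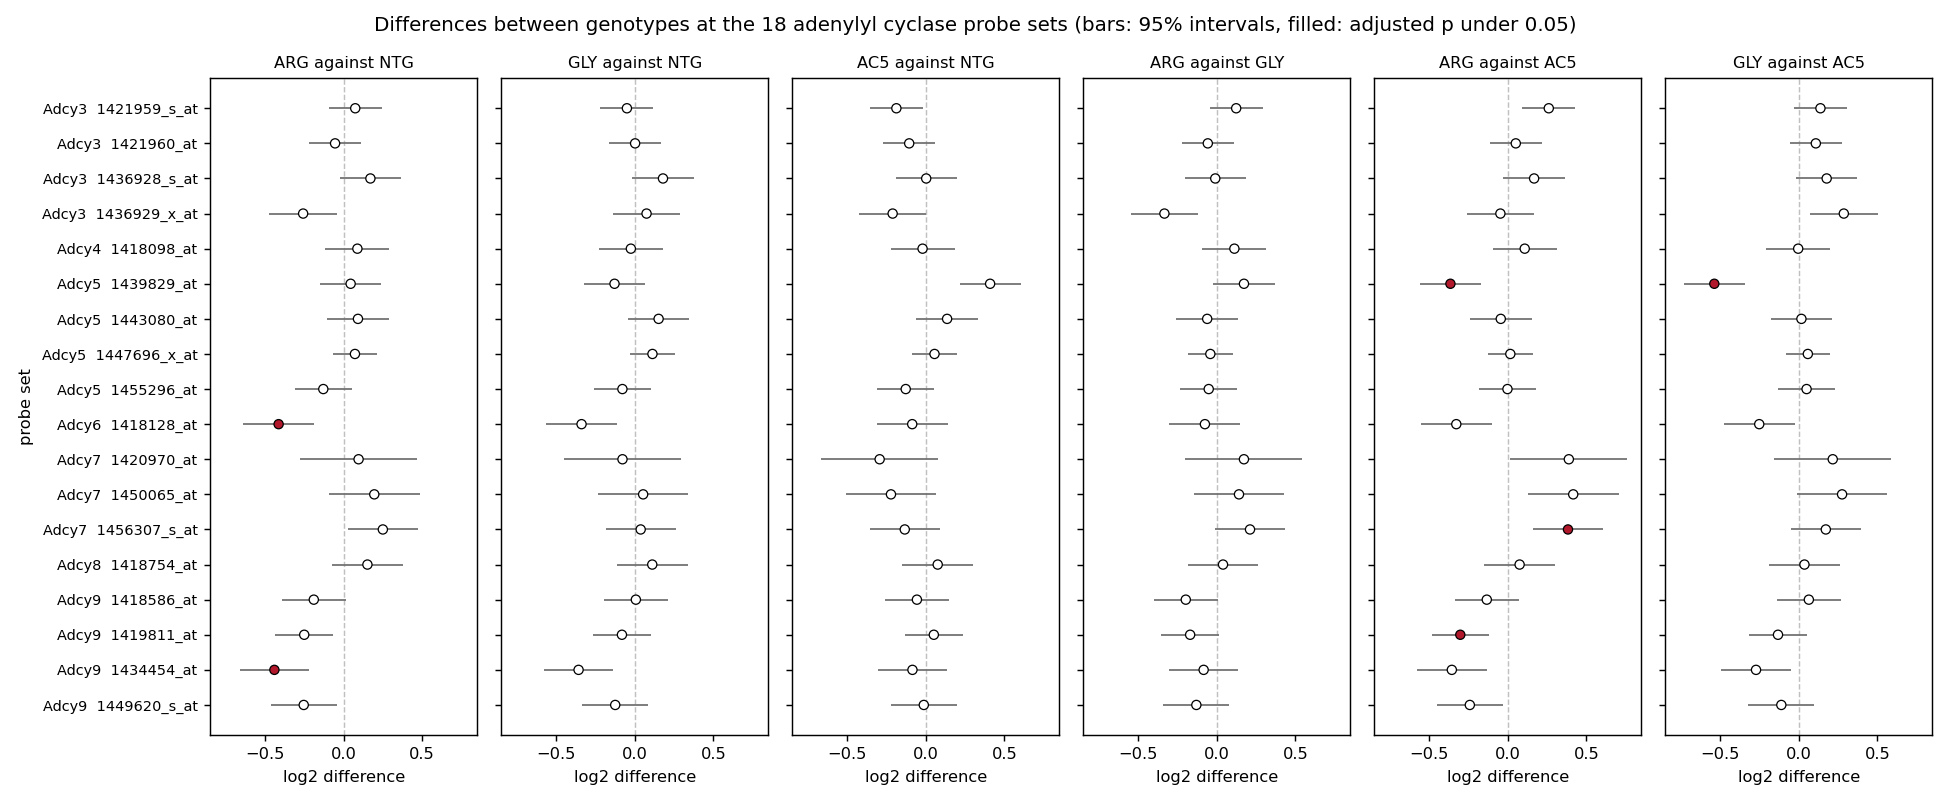
Log2 difference (horizontal axis) of each of the 18 probe sets in each of the 6 comparisons, with its 95% interval, 6 hearts per genotype. Filled points were called at an adjusted p under 0.05. Filled points stand at Adcy6 and Adcy9 in ARG against NTG, at Adcy5 in GLY against AC5, and at Adcy5, Adcy7 and Adcy9 in ARG against AC5.

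One question was whether the AC5 transgene was seen by the Adcy5 probe sets. Adcy5 probe set 1439829_at read ratios with lowest, median and highest values of 0.820, 1.01 and 1.38 in ARG hearts and 0.750, 0.951 and 1.04 in GLY hearts. The corresponding ratios were 1.24, 1.32 and 1.46 in AC5 hearts and 0.934, 0.992 and 1.10 in NTG hearts. Every AC5 heart lay above every NTG and GLY heart, while ARG replicate 1, at 1.38, lay inside the AC5 range. By median the order was AC5, ARG, NTG and GLY, and the last 3 overlapped one another.

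The log2 difference between AC5 and NTG at 1439829_at was 0.41 ± 0.09 (SE, n = 6 hearts per genotype), with a 95% interval of 0.22 to 0.60, or a 1.33-fold higher ratio. Its adjusted p of 0.0813 missed the threshold, so Adcy5 was not called in AC5 against NTG. Its unadjusted p in the limma fit was 0.000192. The fit shared 1 spread over the 4 genotypes, and at this probe set the SD of log2 ratios was 0.0794 in AC5 and 0.0910 in NTG hearts, beside 0.165 in GLY and 0.252 in ARG hearts. With AC5 and NTG hearts alone the same difference was called at an adjusted p of 0.00761, and without the 3 arrays of low weight at 0.0203. Leaving out ARG replicate 1 alone gave 0.0309.

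Adcy5 1439829_at fell in both receptor lines relative to AC5. In GLY against AC5 the difference was -0.54 ± 0.09 (adjusted p = 0.00444) and the groups did not overlap. In ARG against AC5 it was -0.37 ± 0.09 (adjusted p = 0.0199), with overlap. The GLY difference was -0.56 in replicates 1 to 3 alone and -0.52 in replicates 4 to 6 alone (adjusted p = 0.122 and 0.120, neither called). The ARG difference was -0.28 (adjusted p = 0.674) and -0.45 (0.0266) in those sets. The ARG call was lost without AC5 replicate 5 (adjusted p = 0.0506) or ARG replicate 2 (0.0636). Without the 3 arrays of low weight the ARG difference was -0.45 (adjusted p = 0.00102) and the GLY difference -0.58 (0.00145), both called. Against NTG the receptor lines gave 0.04 ± 0.09 in ARG (adjusted p = 0.878) and -0.13 ± 0.09 in GLY (0.507), neither called.

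The other 3 Adcy5 probe sets did not follow 1439829_at. In AC5 against NTG they differed by 0.14 at 1443080_at, 0.06 at 1447696_x_at and -0.13 at 1455296_at, with adjusted p between 0.850 and 0.941. None of them was called in any of the 6 comparisons. Over the 24 hearts their log2 ratios correlated with those of 1439829_at at r = 0.03, 0.05 and 0.10, values that share the array and its normalization. At 1443080_at the ratios reached 1.36 in GLY replicate 1 and 1.40 in AC5 replicate 1, and AC5 and NTG hearts overlapped at all 3.

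**Figure D2:**
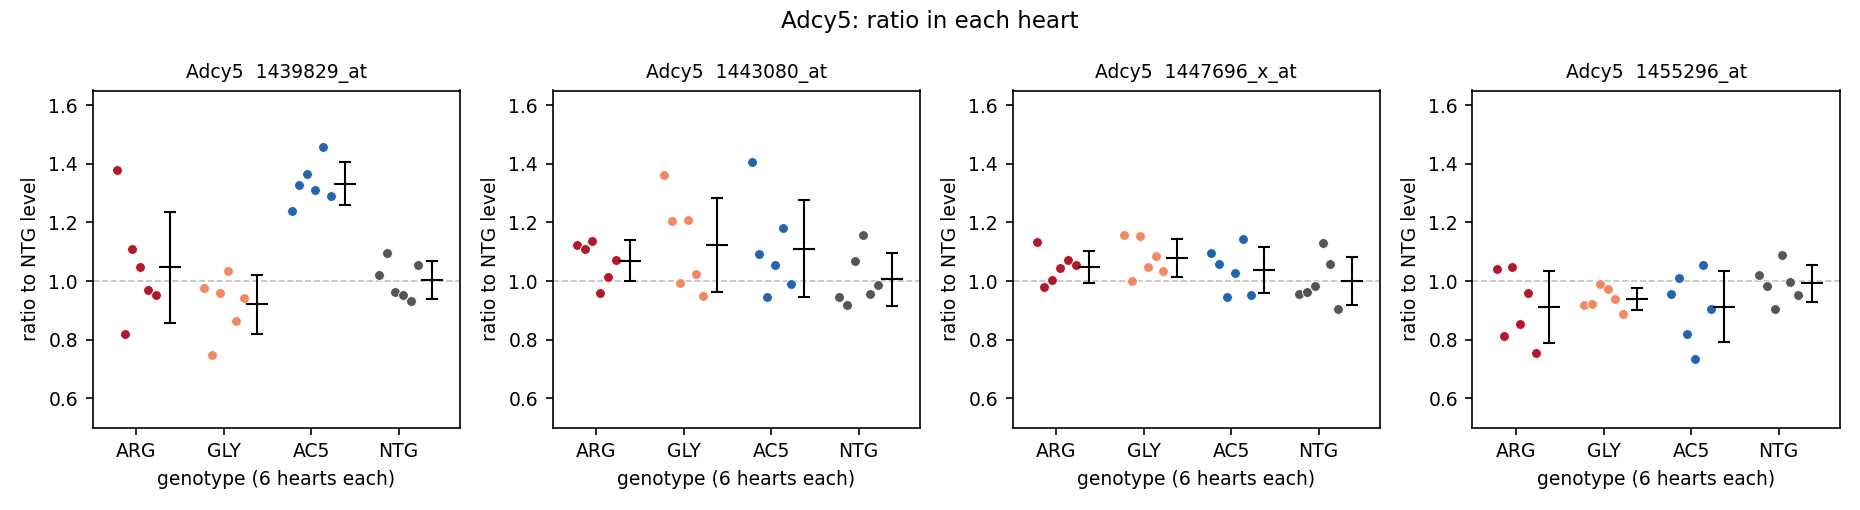
Ratio to the NTG level (vertical axis, linear) in each heart for the 4 Adcy5 probe sets, by genotype along the horizontal axis with 6 hearts each. Points are hearts, black bars are the mean ± SD and the dashed line is a ratio of 1. At 1439829_at the AC5 hearts sit between 1.24 and 1.46, above all NTG hearts, while at the other 3 probe sets the genotypes overlap.

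Adcy6, the other main cyclase of heart muscle, fell in ARG hearts. Probe set 1418128_at read ratios with lowest, median and highest values of 0.653, 0.700 and 0.889 in ARG hearts and 0.597, 0.784 and 0.981 in GLY hearts. In AC5 hearts they were 0.724, 0.931 and 1.22, and in NTG hearts 0.911, 0.993 and 1.07. All 6 ARG hearts lay below all 6 NTG hearts, whereas GLY and AC5 hearts each overlapped the NTG range. By median the order was NTG, AC5, GLY and ARG, and each neighbouring pair overlapped.

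In ARG against NTG Adcy6 fell by 0.41 ± 0.11 on the log2 scale, to 0.750 of the NTG ratio (adjusted p = 0.0137). Within replicates 1 to 3 the difference was -0.53 (adjusted p = 0.0461) and within replicates 4 to 6 it was -0.29 (0.263). The call was kept when each of the 24 hearts was left out in turn, with a highest adjusted p of 0.0379, and was lost after quantile normalization (-0.34, adjusted p = 0.0793). In whole hearts, fewer cells of a type and less RNA per cell cannot be told apart. The GLY difference from NTG was -0.34 ± 0.11 with an adjusted p of 0.0719 and a 95% interval of -0.56 to -0.11, not called. It was called without GLY replicate 4 (adjusted p = 0.0307) or AC5 replicate 5 (0.0492). Without the 3 arrays of low weight it was -0.35 (adjusted p = 0.152), not called. ARG and GLY differed from each other by -0.08 ± 0.11 (adjusted p = 0.822), with an interval of -0.30 to 0.15. Against AC5, ARG differed by -0.33 (adjusted p = 0.0919, and 0.0298 without AC5 replicate 3) and GLY by -0.25 (0.361), and AC5 differed from NTG by -0.09 (0.942). Without the 3 arrays of low weight the ARG difference from AC5 was -0.31 (adjusted p = 0.121), not called.

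Adcy9 fell in ARG hearts at 1 of its 4 probe sets. At 1434454_at the lowest, median and highest ratios were 0.630, 0.706 and 0.880 in ARG hearts and 0.676, 0.765 and 0.866 in GLY hearts. They were 0.769, 0.946 and 1.14 in AC5 hearts and 0.815, 1.02 and 1.14 in NTG hearts. The ARG and NTG ranges overlapped between 0.815 and 0.880, and the order by median was NTG, AC5, GLY and ARG, as for Adcy6.

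In ARG against NTG Adcy9 1434454_at fell by 0.44 ± 0.11, to 0.736 of the NTG ratio (adjusted p = 0.00713). The first 3 replicates alone gave -0.44 and the last 3 alone gave -0.44, though with 3 hearts a side neither was called (adjusted p = 0.160 and 0.134). The call was kept when each heart was left out in turn (highest adjusted p 0.0235) and lost after quantile normalization (-0.33, adjusted p = 0.146). The GLY difference from NTG was -0.36 ± 0.11, with an adjusted p of 0.0503 just above the threshold. It was called in 9 of 24 fits that each left out 1 heart (lowest adjusted p 0.0317, without NTG replicate 5). Without the 3 arrays of low weight it was -0.38 (adjusted p = 0.0913), not called. ARG and GLY differed by -0.08 (adjusted p = 0.792), with an interval of -0.31 to 0.14. Against AC5 the difference was -0.36 in ARG (adjusted p = 0.0524) and -0.27 in GLY (0.293), neither called. The first of these was called in 6 of 24 fits that each left out 1 heart, with a lowest adjusted p of 0.0286 without ARG replicate 5. Without the 3 arrays of low weight it was -0.34 (adjusted p = 0.0729), not called.

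The remaining Adcy9 probe sets lay on the same side in ARG against NTG, with differences of -0.19 at 1418586_at (adjusted p = 0.294), -0.25 at 1419811_at (0.0774) and -0.25 at 1449620_s_at (0.133), none of them called. At 1419811_at the lowest, median and highest ratios were 0.714, 0.855 and 0.917 in ARG hearts and 0.858, 1.03 and 1.20 in AC5 hearts, which overlapped. It fell in ARG against AC5 by 0.30 ± 0.09 (adjusted p = 0.0456). That call lies close to the threshold: it held in 11 of 24 fits that each left out 1 heart, with a highest adjusted p of 0.137, and was lost without any of ARG replicates 3, 4 and 6, AC5 replicates 1, 2, 5 and 6, GLY replicate 4 and NTG replicates 1, 2, 3, 5 and 6. With the replicate number as a block its adjusted p was 0.0644, and with ARG and AC5 hearts alone 0.0797. After quantile normalization it was 0.145. Without the 3 arrays of low weight the difference was -0.32 (adjusted p = 0.0256), called. In ARG against AC5 all 4 Adcy9 differences lay between -0.36 and -0.13.

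**Figure D3:**
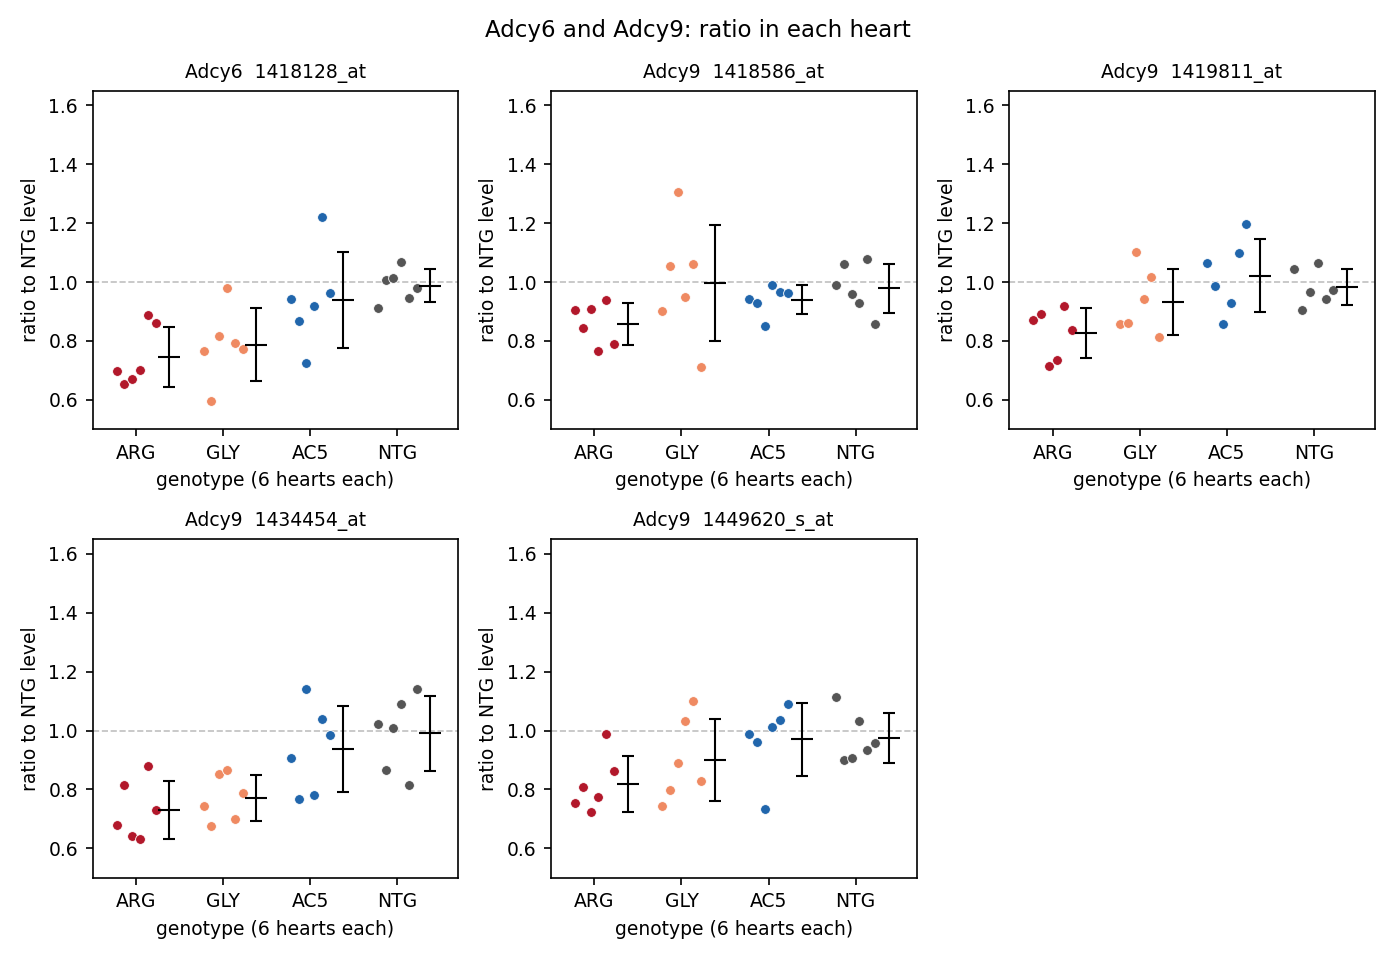
Ratio to the NTG level (vertical axis, linear) in each heart for the Adcy6 probe set and the 4 Adcy9 probe sets, by genotype with 6 hearts each. Points are hearts, black bars the mean ± SD and the dashed line a ratio of 1. For Adcy6 the ARG hearts sit between 0.653 and 0.889, below every NTG heart, and at Adcy9 1434454_at the ARG and GLY hearts sit low with some overlap with NTG.

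Adcy7, a cyclase that is abundant in blood and immune cells, rose in ARG hearts relative to AC5 hearts. At 1456307_s_at, a probe set type that can read transcripts of more than 1 gene, the lowest, median and highest ratios were 0.853, 1.08 and 1.47 in ARG hearts and 0.767, 0.992 and 1.05 in GLY hearts. They were 0.776, 0.815 and 0.953 in AC5 hearts and 0.758, 0.936 and 1.07 in NTG hearts. The ARG hearts ran highest and the AC5 hearts lowest by median, and all 4 genotypes overlapped.

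The rise in ARG against AC5 was 0.38 ± 0.11, a 1.30-fold higher ratio (adjusted p = 0.0356). Replicates 1 to 3 alone gave 0.15 (adjusted p = 0.854), and replicates 4 to 6 alone gave 0.61 (0.0274). Without the 3 arrays of low weight the difference was 0.45 (adjusted p = 0.00642), called. The call held in 16 of 24 fits that each left out 1 heart, with a highest adjusted p of 0.120, and was lost without ARG replicates 2, 4 or 5 or AC5 replicates 2, 3, 4, 5 or 6, and after quantile normalization (adjusted p = 0.0879). The other Adcy7 probe sets gave 0.42 ± 0.14 at 1450065_at (adjusted p = 0.0952, and 0.0499 without ARG replicate 6) and 0.39 ± 0.18 at 1420970_at (0.303). In ARG against NTG the 3 differences were 0.25, 0.19 and 0.09, and in AC5 against NTG -0.13, -0.22 and -0.29, with none called. Over the 24 hearts the 3 probe sets correlated pairwise at r between 0.424 and 0.730.

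Markers of other cell types moved in the same comparison as Adcy7, ARG against AC5. There 6.34% of all genes were called, 3.16% higher and 3.19% lower. Of 16 markers of macrophages and other myeloid cells, 10 rose and 0 fell in ARG against AC5, with a median difference of 0.69 beside 0.00 over all genes. The mean log2 ratio of these 16 ranged from 0.22 to 0.90 in ARG hearts, from -0.28 to 0.49 in GLY hearts, from -0.18 to 0.20 in AC5 hearts and from -0.09 to 0.04 in NTG hearts. Every ARG heart thus exceeded every AC5 and NTG heart in the mean of these markers, while 6 of the 16 were not called in ARG against AC5. Of 12 fibroblast markers 7 rose and 0 fell in ARG against AC5, with means of -0.01 to 0.72 in ARG hearts and -0.41 to -0.23 in AC5 hearts. Of 14 endothelial markers 0 were called (limma) in ARG against AC5, with 3 at an unadjusted p under 0.05, and their means ranged from -0.51 to -0.10 in ARG hearts and from -0.33 to 0.08 in AC5 hearts. Of 8 adipocyte markers 0 rose and 3 fell in ARG against AC5, with a median difference of -0.17 and means of -0.52 to -0.12 in ARG hearts and -0.16 to 0.42 in AC5 hearts. Car3, the largest fall among them, fell by 1.57 ± 0.33 (adjusted p = 0.00382). Among heart muscle, smooth muscle, nerve and glia, and platelet and lymphocyte markers 0 were called (limma) in that comparison, with 1, 0, 0 and 2 at an unadjusted p under 0.05. Their part in the Adcy7 difference was not tested. In the comparison that called Adcy6 and Adcy9, ARG against NTG, 11.3% of all genes were called, 4.24% higher and 7.1% lower. Of the 16 myeloid markers 10 rose and 0 fell there. In that comparison 7 of the 12 fibroblast markers rose and 1 fell, 1 of the 14 endothelial markers rose and 4 fell, and 0 of the 14 heart muscle markers rose and 2 fell. Of 8 adipocyte markers 0 rose and 2 fell, and 0 were called (limma) among 7 markers of smooth muscle, 6 of nerve and glia, and 8 of platelets and lymphocytes, with 2, 0 and 3 at an unadjusted p under 0.05. What these have to do with the 2 falls was not tested.

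**Figure D4:**
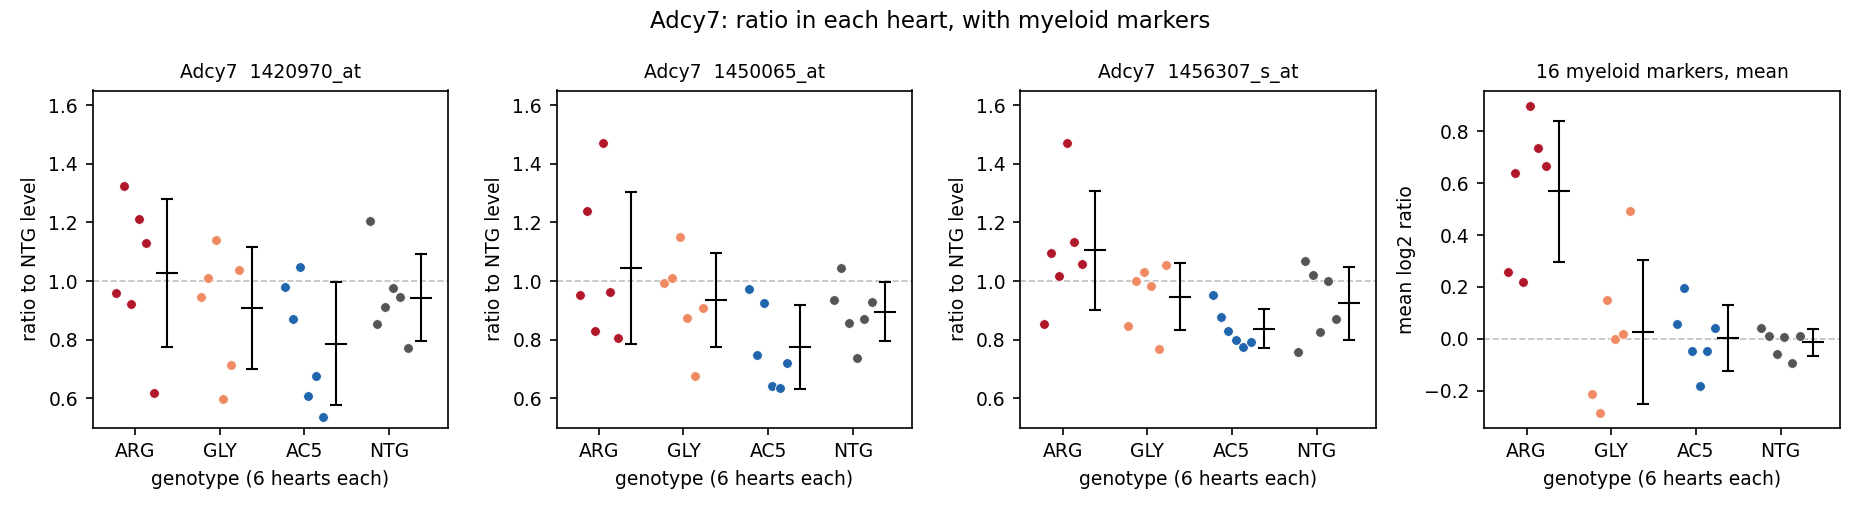
Ratio to the NTG level (vertical axis, linear) in each heart for the 3 Adcy7 probe sets, and the mean log2 ratio of 16 myeloid markers in the same hearts, by genotype with 6 hearts each. Points are hearts and black bars the mean ± SD. The ARG hearts lie above all AC5 and NTG hearts in the marker panel, from 0.22 to 0.90, and overlap them in the Adcy7 panels.

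Adcy3, Adcy4 and Adcy8 were not called in any of the 6 comparisons. Adcy3 1421959_s_at and 1436928_s_at and Adcy9 1449620_s_at are, like Adcy7 1456307_s_at, of a type that can read transcripts of more than 1 gene. What else Adcy3 1436929_x_at and Adcy5 1447696_x_at read was not tested. Adcy3 1436929_x_at read lowest, median and highest ratios of 0.737, 0.839 and 1.14 in ARG hearts and 0.864, 1.08 and 1.33 in GLY hearts, against 0.821, 0.870 and 0.955 in AC5 hearts and 0.967, 0.985 and 1.17 in NTG hearts. The AC5 and NTG hearts did not overlap, and 5 of the 6 ARG hearts lay below all NTG hearts. The ARG difference from NTG was -0.26 ± 0.10 (adjusted p = 0.138), and without ARG replicate 1 it was called, at -0.34 (adjusted p = 0.0207). The ARG difference from GLY was -0.33 ± 0.10 (adjusted p = 0.120), and without that heart -0.42 (0.0187). Without all 3 arrays of low weight it was -0.28 (adjusted p = 0.123), not called. The AC5 difference from NTG was -0.21 ± 0.10 (adjusted p = 0.704). At 1421959_s_at ARG differed from AC5 by 0.26 ± 0.08 (adjusted p = 0.0679), and this was called without AC5 replicate 3 (0.0253) or ARG replicate 6 (0.0243). Without the 3 arrays of low weight it was 0.22 (adjusted p = 0.113), not called. The other Adcy3 probe sets did not follow 1436929_x_at in ARG against NTG, with 0.17 at 1436928_s_at, 0.07 at 1421959_s_at and -0.06 at 1421960_at.

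Adcy3 1436928_s_at gave unlike values in the sets of replicates in GLY against NTG, a difference that was not tested. It read 0.43 within replicates 1 to 3 (adjusted p = 0.0259), -0.07 within replicates 4 to 6 (0.894) and 0.18 ± 0.09 over all 6 hearts (0.316). Those first 3 GLY hearts hold both GLY arrays of low weight. Adcy4, a cyclase found in vessels among other tissues, differed from NTG by 0.09 ± 0.10 in ARG, -0.02 ± 0.10 in GLY and -0.02 ± 0.10 in AC5. Adcy8, best known from the brain, differed from NTG by 0.15 ± 0.11 in ARG, 0.11 ± 0.11 in GLY and 0.08 ± 0.11 in AC5, and its ARG ratios ran from 0.775 to 1.58.

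**Figure D5:**
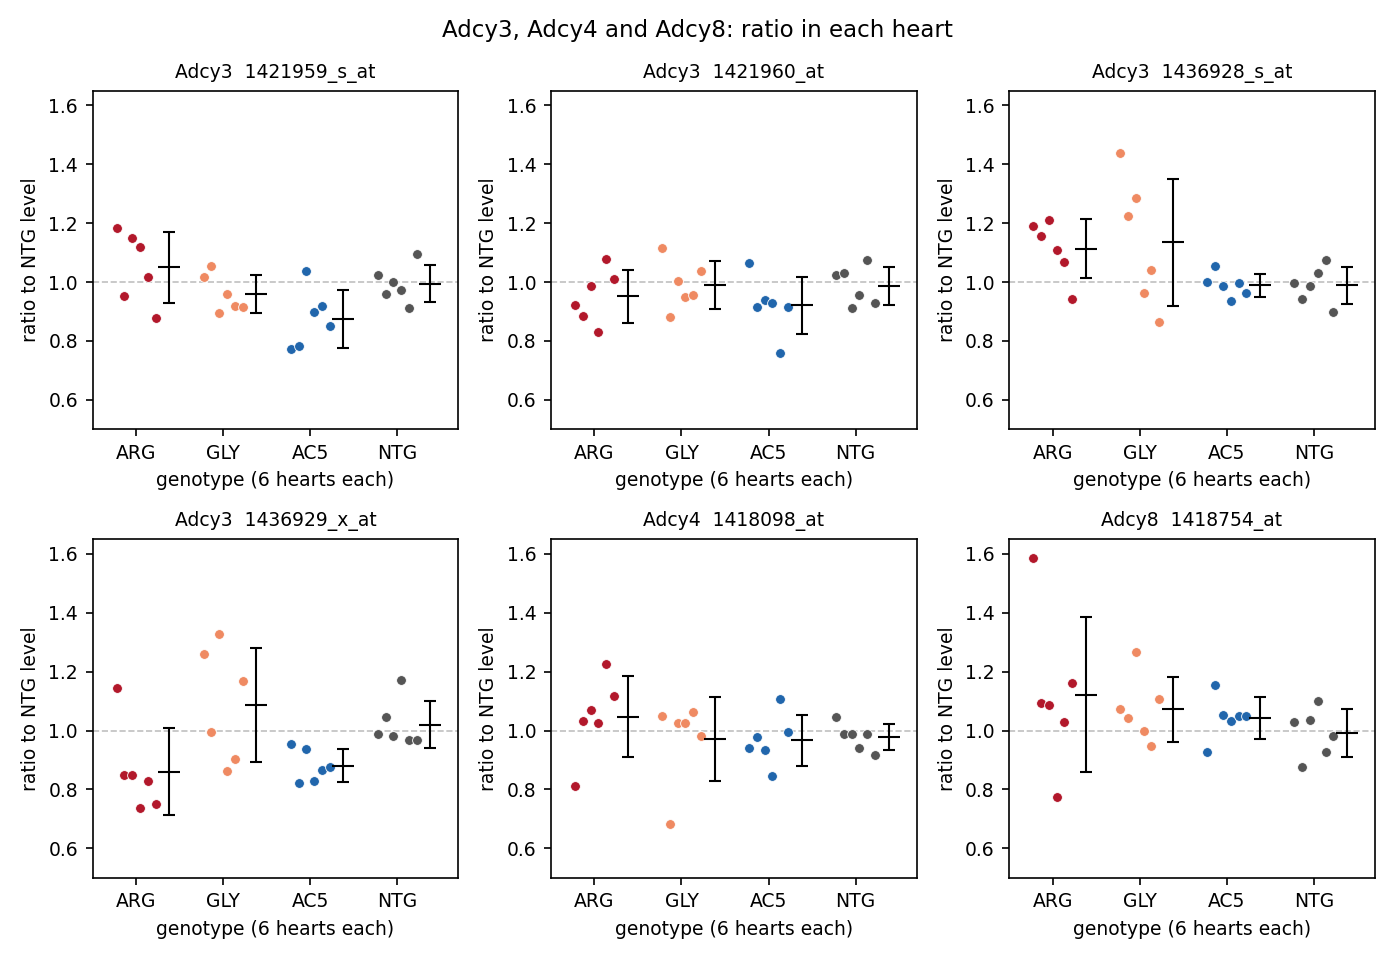
Ratio to the NTG level (vertical axis, linear) in each heart for the 4 Adcy3 probe sets and the single probe sets of Adcy4 and Adcy8, by genotype with 6 hearts each. Points are hearts, black bars the mean ± SD and the dashed line a ratio of 1. ARG replicate 1, at 1.14, stands above the other 5 ARG hearts at Adcy3 1436929_x_at, and GLY replicate 2, at 0.684, below the other GLY hearts at Adcy4.

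The genes around the cyclases in the pathway were counted at 1 probe set per gene, chosen without the values. In ARG against NTG 11.3% of all genes were called, 4.24% higher and 7.1% lower. Of 14 cyclic AMP phosphodiesterases, the enzymes that remove cyclic AMP, 5 rose and 0 fell. Pde4d, a phosphodiesterase tied to receptor and calcium-channel complexes in heart muscle, rose by 0.78 ± 0.10 in ARG (adjusted p = 6.52e-06) and by 0.61 ± 0.10 in GLY (0.000701). In GLY against NTG, where 5.45% of all genes were called (1.34% higher and 4.12% lower), 2 of the 14 rose and 0 fell, and in AC5 against NTG 0 were called (limma), with 4 at an unadjusted p under 0.05. Against AC5, 4 rose and 1 fell in ARG, where 6.34% were called, 3.16% higher and 3.19% lower. Pde4d rose by 0.57 ± 0.10 there, and Pde8b fell by 0.29 ± 0.08 (adjusted p = 0.0430). The Pde8b call was lost in fits without single hearts (highest adjusted p 0.123). In ARG against GLY, where 1.9% of genes were called, Pde3b, a phosphodiesterase that cyclic GMP inhibits, rose by 0.63 ± 0.14 (adjusted p = 0.0149). Without the 3 arrays of low weight it was not called. After quantile normalization the phosphodiesterase calls numbered 3 in ARG and 1 in GLY against NTG, and 1 in ARG against AC5. Within replicates 1 to 3 they numbered 2, 1 and 1 in the same 3 comparisons, and within replicates 4 to 6 they numbered 4, 1 and 1. Of all probe sets 2.89%, 6.08% and 0.542% were called within replicates 1 to 3, and 5.59%, 0.16% and 3.04% within replicates 4 to 6. In GLY against AC5, where 0.857% were called, Pde4b rose by 0.55 ± 0.10 (adjusted p = 0.00683) at the probe set counted. It was the 1 of 6 Pde4b probe sets called, and the call was lost within both sets of replicates and with GLY and AC5 hearts alone. Pde4d was called at 1 of its 2 probe sets in each of the comparisons named, and Pde8b at 1 of 2.

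Receptors and G proteins stand upstream of the cyclases. Of 19 receptors matched of 27 listed, 1 rose and 3 fell in ARG against NTG, and 0 were called (limma) in GLY or in AC5 against NTG, with 2 at an unadjusted p under 0.05 in each. Of all genes 11.3% were called in ARG (4.24% higher, 7.1% lower), 5.45% in GLY and 0.176% in AC5, each against NTG. Ramp1, the accessory protein of the CGRP receptor, fell by 0.70 ± 0.13 in ARG (adjusted p = 0.000588). Ptger4, a prostaglandin E2 receptor that raises cyclic AMP, rose by 0.54 ± 0.16 (adjusted p = 0.0279), with a highest adjusted p of 0.0863 when single hearts were left out. Relative to AC5, 2 receptors rose and 0 fell in ARG, with Ptger4 at 0.90 ± 0.16 (adjusted p = 0.000712). In that comparison 3.16% of all genes were called higher and 3.19% lower. Of 22 G protein genes matched of 23, 1 rose and 1 fell in ARG and 0 rose and 2 fell in GLY, each against NTG. Gnb3, a G protein beta subunit, fell by 1.06 ± 0.11 in ARG (adjusted p = 2.08e-07) and by 0.96 ± 0.11 in GLY (8.99e-06). Gnb3 fell by 0.78 ± 0.11 in ARG and by 0.67 ± 0.11 in GLY relative to AC5. Gnal, which encodes the olfactory form of the stimulatory alpha subunit, rose by 0.34 ± 0.11 in ARG against NTG (adjusted p = 0.0427), a call lost when single hearts were left out (highest adjusted p 0.132). The 4 receptor calls in ARG against NTG became 1 after quantile normalization and 1 within each set of replicates. Over all probe sets 2.89% were called within replicates 1 to 3 and 5.59% within replicates 4 to 6 in ARG against NTG. Ramp1 was called there at 1 of its 3 probe sets, Gnal at 1 of 3 and Ptger4 at 1 of 2, and Gnb3 has 1 probe set.

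Regulators and scaffolds place cyclases in complexes or set how strongly G proteins drive them, and effectors carry the cyclic AMP signal on. Of 22 regulators and scaffolds matched of 26, 2 rose and 2 fell in ARG against NTG, 2 rose and 4 fell in GLY against NTG, and 2 rose and 0 fell in ARG against AC5. Of all genes 11.3% were called in ARG against NTG (4.24% higher, 7.1% lower) and 5.45% in GLY against NTG (1.34% higher, 4.12% lower). In ARG against AC5 6.34% were called, 3.16% higher and 3.19% lower. The 6 calls in GLY against NTG became 2 without the 3 arrays of low weight, 2 after quantile normalization, 6 within replicates 1 to 3 and 0 within replicates 4 to 6. Over all probe sets in GLY against NTG, 6.08% were called within replicates 1 to 3 and 0.16% within replicates 4 to 6. Without the 3 arrays 2.91% were called. The 4 calls in ARG against NTG became 6 without those arrays and 2 within replicates 1 to 3. The shares of all probe sets called in these fits were 13.2% and 2.89%. The 2 calls in ARG against AC5 became 5 without those arrays, 0 after quantile normalization, 0 within replicates 1 to 3 and 1 within replicates 4 to 6. Rgs2, which restrains Gq signalling and binds some cyclases, rose by 0.89 ± 0.15 in ARG (adjusted p = 0.000128) and by 0.74 ± 0.15 in GLY (0.00319), each against NTG. Rgs2 also rose in ARG against AC5, by 0.56 ± 0.15 (adjusted p = 0.0211), with a highest adjusted p of 0.0679 when single hearts were left out. Ric8b, a chaperone of stimulatory G protein alpha subunits, fell by 0.58 ± 0.11 in ARG against NTG (adjusted p = 0.000888). Snx13, a sorting nexin with an RGS domain, fell by 0.71 ± 0.20 in GLY against NTG (adjusted p = 0.0320), with a highest adjusted p of 0.100 when single hearts were left out. Of 17 cyclic AMP effectors matched of 21, 1 fell in ARG and 1 in GLY, with 0 rising. In both it was Pkia, an inhibitor peptide of protein kinase A, at -1.03 ± 0.26 in ARG (adjusted p = 0.0102) and -1.02 ± 0.26 in GLY (0.0220). The GLY call of Pkia was lost without GLY replicate 1, GLY replicate 3, NTG replicate 1 or NTG replicate 6. Rgs2 was called at 3 of 4 probe sets in ARG and in GLY against NTG and at 1 of 4 in ARG against AC5, Ric8b at 1 of 2, Snx13 at 2 of 3 and Pkia at 2 of 2.

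Of the 9 other cyclases, which include Adcy1, Adcy2, Adcy10 and the guanylyl cyclases, 0 rose and 2 fell in ARG and 0 rose and 2 fell in GLY, each against NTG. Adcy1, Adcy2 and Adcy10 were not among those that fell. Of all genes 11.3% were called in ARG (7.1% lower) and 5.45% in GLY (4.12% lower), each against NTG. Npr2, the receptor guanylyl cyclase for C-type natriuretic peptide, fell by 0.53 ± 0.09 in ARG against NTG (adjusted p = 0.000342). Npr2 also fell in ARG against AC5, by 0.32 ± 0.09 (adjusted p = 0.0488), with a highest adjusted p of 0.138 when single hearts were left out. Gucy1a2, a subunit of soluble guanylyl cyclase, fell by 0.47 ± 0.12 in GLY against NTG (adjusted p = 0.0223), with a highest adjusted p of 0.0720 without single hearts, and was called at 1 of its 2 probe sets. In AC5 against NTG 0.176% of all genes were called. Of the 103 matched genes of the 6 pathway lists 0 were called there (limma), with 13 at an unadjusted p under 0.05. With quantile normalization 1 regulator or scaffold and 1 phosphodiesterase were called in AC5 against NTG. After quantile normalization 12 of the 24 calls named in these lists were lost, with adjusted p between 0.0513 and 0.596. Those kept were Gnb3, Pde4d, Rgs2, Ramp1, Ric8b, Npr2 and Pkia in ARG against NTG, Gnb3 and Pde4d in GLY against NTG, Gnb3 and Ptger4 in ARG against AC5, and Pde4b in GLY against AC5.

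Genes whose log2 ratio followed a called cyclase most closely over the 24 hearts were found among 18186 genes, as a description. The hearts share genotypes and arrays, so r is also given after the genotype means were taken out. For Adcy6 1418128_at these were Tufm (r = 0.88, and 0.81 without genotype means), a mitochondrial translation factor, Neurl4 (0.87, 0.86) and the water channel Aqp1 (0.87, 0.73). The most opposed was Wdr75 (-0.79, -0.66). For Adcy9 1434454_at they were Tmem186 (0.81, 0.59), Bcat2, a mitochondrial branched-chain aminotransferase (0.79, 0.62), and Dcbld1 (0.78, 0.61), with Cnih4 most opposed (-0.82, -0.58). For Adcy7 1456307_s_at they were the matrix metalloproteinase Mmp3 (0.86, 0.79), Calhm5 (0.84, 0.75) and the monoamine oxidase Maoa (0.82, 0.70), with Kcnk1 most opposed (-0.81, -0.70). For Adcy5 1439829_at they were Plcd1 (0.79, 0.35), Gpt2 (0.74, 0.46) and Stip1 (0.72, 0.57), with Trmt10b most opposed (-0.78, -0.65). The correlation of Adcy5 with Plcd1, a phospholipase C, was thus the weakest of these once genotype means were removed.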

How the data were processed

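Total RNA of 24 mouse hearts was hybridised to Affymetrix arrays. Per the submitters' processing notes the authors used RMA (version not given in the sources used here). What was deposited is a linear ratio, near 1 in NTG hearts. The division by the NTG level is read from the values and stated nowhere. Of 45101 probe sets 64 Affymetrix controls were left out and no filter on brightness was applied. Symbols came from GEO's platform annotation. Of the tested probe sets 34945 had 1 gene, 932 several and 9160 none.

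Log2 of the ratio was fitted with limma 3.58.1 in R 4.3.3 (lmFit and eBayes, two-sided) on all 24 arrays with 1 mean per genotype. P-values were adjusted by Benjamini-Hochberg over 45037 probe sets, and called means an adjusted p under 0.05. "Rose" and "fell" are used of called probe sets. The number of arrays sets the precision, with a median SE of 0.0992. No 2 arrays were identical. The fit was tested on simulated data. Figures and sequence tables used matplotlib 3.10.9, numpy 2.4.6 and pandas 2.3.3 in Python 3.11.15.

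All 7 members are reported at all probe sets. Other genes are named by rule: for each called member the 3 genes most correlated with it and the 1 most opposed, and for each pathway list the called gene with the largest rise and fall in each comparison, at the probe set with the simplest suffix and lowest number. Marker lists are given as counts. The members and lists were chosen with earlier results of these data known. Alternatives were other normalizations and weights, the replicate number as a block, a term for the replicate set, each set alone, the compared genotypes alone, and fits without single arrays or without the 3 arrays of low weight.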

Additional observations from a re-analysis of the deposited data

Results flagged for a closer look

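In 72 groups of 6 hearts (18 probe sets in 4 genotypes), the gap between the farthest heart and its nearest neighbour was compared with the range of the group, a check that flags about 1 in 20 groups by chance. It singled out 3 hearts. At Adcy3 1436929_x_at ARG replicate 1 had a ratio of 1.14, where the other ARG hearts ran from 0.737 to 0.851. At Adcy4 1418098_at GLY replicate 2 had 0.684, where the other GLY hearts ran from 0.982 to 1.06. At Adcy9 1449620_s_at AC5 replicate 3 had 0.734, where the other AC5 hearts ran from 0.963 to 1.09. ARG replicate 1 is also an array of low weight.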

How the results depend on the processing

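Of 3822 member values under alternatives, 3744 kept their side of the threshold, 38 lost a call and 40 gained one. The sign changed in 125, all of them values called neither in the fit of all arrays nor under the alternative. Most of the 3822 values were called in neither fit. The 38 losses all fell on the few values called in the fit of all arrays. Single arrays aside, these calls held in 6 of 11 alternatives (Adcy9 1419811_at in ARG against AC5) up to 11 of 12 (Adcy5 1439829_at in ARG against AC5). The number of called members moved as follows. In ARG against NTG, 2 in the fit of all arrays became 1 within replicates 1 to 3, 0 within replicates 4 to 6, 0 after quantile normalization, 5 without the 3 arrays of low weight and 1 with 1 probe set per gene. A smaller move there was the gain of Adcy3 1436929_x_at with array weights (adjusted p = 0.0247). In GLY against NTG, 0 became 2 with a term for the replicate set, and 1 within replicates 1 to 3, with median centring, and with probe sets of 1 gene only. In AC5 against NTG, 0 became 1 after quantile normalization, with array weights, with a weight per genotype, with the 2 genotypes alone and without the 3 arrays, each time Adcy5 1439829_at. In ARG against AC5, 3 became 0 within replicates 1 to 3, 1 after quantile normalization and 1 with 1 probe set per gene. Among smaller moves there, Adcy6 was gained with a term for the replicate set (adjusted p = 0.0405). Adcy9 1434454_at was gained with probe sets of 1 gene only (0.0469), and Adcy9 1419811_at was lost with the 2 genotypes alone (0.0797). In GLY against AC5, 1 became 0 within either set. Leaving out single arrays gave 2 to 3 in ARG against NTG, 0 to 2 in GLY against NTG, 0 to 1 in AC5 against NTG, 0 to 1 in ARG against GLY, 0 to 4 in ARG against AC5 and 1 to 1 in GLY against AC5. Fits within a set have 3 hearts a side. Over all probe sets they made fewer calls than the fit of all arrays, except within replicates 1 to 3 in GLY against NTG, where 2740 were called and 2286 in the fit of all arrays. The cause of the other moves was not tested.

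With the replicate number as a block, called members numbered 2 in ARG, 0 in GLY and 0 in AC5 against NTG, 0 in ARG against GLY, 2 in ARG against AC5 and 1 in GLY against AC5. Over 36 same-numbered pairs the deviations from group means correlated between -0.289 and 0.492, with a median of 0.0373. Pairs of other numbers had a median of 0.00264, and 9 of 24 arrays correlated best with an array of their own number. These values do not settle whether hearts of the same number are paired. Of 1296 list counts (6 pathway lists in 6 comparisons under each alternative), 1122 stayed within 1.5 times and 174 moved, a check chosen after seeing the data. Adcy6 and Adcy9 in ARG against NTG, and Adcy5 in GLY against AC5, kept their calls when any single array was left out.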
